A study of Mus musculus with 4 samples.

Results

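Transcripts of 8 gap junction and related channel genes were compared in cultured neural stem cells of the embryonic mouse cortex. The genes were taken by symbol: the connexin genes Gja1, Gjb2, Gjb6, Gjc1, Gjc3 and Gjd2 and the pannexin genes Panx1 and Panx2. All 8 symbols were found among 24421 gene rows, and 6 of them were counted often enough to test. Cells came from the cerebral cortex of C57BL/6J embryos at embryonic day 17 and were kept for 1 day with basic FGF and EGF before poly(A) RNA was sequenced. The 2 libraries labelled Nestin-Cre carried floxed Prrc2b alleles (Prrc2bf/f) and Nestin-Cre, a recombinase under regulatory sequence of Nes, a gene of neural progenitors, so that cells of other lineages are not its intended target. The 2 floxed control libraries carried the same Prrc2bf/f alleles without Cre. The comparison asks which transcripts differ when deletion of Prrc2b is induced in the neural lineage.

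Connexins are membrane proteins that assemble in rings of identical or related subunits. Rings of apposed cells dock to form gap junctions, through which ions and small metabolites pass. Radial glia and astrocytes are coupled mainly through the product of Gja1 (connexin 43), and mature astrocytes also use those of Gjb2 (connexin 26) and Gjb6 (connexin 30). Gjc3 (connexin 29) belongs to myelinating glia, Gjd2 (connexin 36) forms the electrical synapses of neurons, and Gjc1 (connexin 45) is made by progenitors, neurons and vascular muscle cells. Pannexins share the membrane topology of connexins but not their sequence, and form channels of single cells that release ATP.

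Gene totals ran from 25936794 to 28263272 counts per library, so that 3 counts, used as a floor, stood for 0.106 to 0.115 counts-per-million (CPM). Libraries of 1 group differed by more than sampling alone, with a chi-square per gene of 1.96 in floxed control and 2.2 in the other pair, and no label says that they came from separate embryos or cultures. P-values therefore reflect only how these libraries vary, which may be technical variation. Prrc2b itself was counted at 575 and 573 CPM in the libraries labelled Nestin-Cre and at 588 and 594 CPM in floxed control (adjusted p = 0.134). The floxed exon is not named by the labels, so this total does not check the label. The Y-linked gene Ddx3y had 0 counts in both libraries labelled Nestin-Cre, against 24.5 and 23.7 CPM in floxed control. Xist was abundant in all 4 libraries, at 2209 and 2119 CPM in the libraries labelled Nestin-Cre and 1673 and 1615 CPM in floxed control. Its log2 fold change was 0.40 ± 0.02 (adjusted p = 1.9e-18, quasi-likelihood test of edgeR). Both controls thus held Ddx3y and Xist together, and whether they pool embryos of both sexes was not tested. Genotype, Cre and embryo sex cannot be told apart in any value below, although none of the 8 genes is X-linked. The progenitor filament gene Nes, whose regulatory sequence drives Cre, was present throughout, at 539 and 539.7 CPM in the libraries labelled Nestin-Cre and 632 and 629 CPM in floxed control (adjusted p = 1.6e-10). The levels of choroid plexus, fibroblast, mural and microglial markers differed between the groups and are given below.

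Gja1 fell and Gjc1 rose in the libraries labelled Nestin-Cre, and the other 4 tested genes did not pass the threshold. Thus 1 of the 6 tested genes was called higher and 1 lower at an adjusted p under 0.05. Among all 15012 genes tested, 33.1% were called, 15.1% as higher and 18.1% as lower, so that 2 calls among 6 genes lie at the background share. The same shares are the background for the counts of called genes in every list below. The split of all calls into 2263 higher and 2711 lower turned to 2939 higher and 2288 lower with upper quartile scaling. For 3 of the 6 genes (50%) no library lay within the range of the other group, against 64.9% of all genes tested. The median log2 fold change was 0.05 over the 6 genes and 0.0047 over all genes tested. Below, levels are in CPM after TMM scaling (trimmed mean of M values), means carry the SD of n = 2 libraries, and a log2 fold change is labelled Nestin-Cre over floxed control and carries its SE.

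The sequence just before the transcription start is shown for Gja1, the gene that fell, and for Gjb2, a further astrocytic connexin that was barely counted, because these upstream stretches differ in composition and in the motifs searched. Both run 5′ to 3′ over 250 bases up to the start, from RefSeq on GRCm38.p6, and capitals mark the AP-1 motif in Gja1 and the GC box in Gjb2. The Gja1 stretch lies on the plus strand at chr10:56377050-56377299 and the Gjb2 stretch on the minus strand at chr14:57104703-57104952.
Gja1: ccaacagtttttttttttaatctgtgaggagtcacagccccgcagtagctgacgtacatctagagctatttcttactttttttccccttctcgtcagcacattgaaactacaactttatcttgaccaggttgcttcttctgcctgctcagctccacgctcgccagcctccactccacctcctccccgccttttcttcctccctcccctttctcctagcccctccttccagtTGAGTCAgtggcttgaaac
Gjb2: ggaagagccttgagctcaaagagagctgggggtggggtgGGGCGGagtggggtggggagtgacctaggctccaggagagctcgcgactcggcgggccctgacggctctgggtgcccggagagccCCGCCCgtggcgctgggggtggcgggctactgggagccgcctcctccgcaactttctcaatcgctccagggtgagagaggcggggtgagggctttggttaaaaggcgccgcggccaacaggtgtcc

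The AP-1 motif TGANTCA, the letters read by Fos and Jun dimers, occurred once before Gja1, as TGAGTCA, beginning 19 bases before the start. It was absent from the 300-base windows (250 bases before to 50 after the start) of the other 5 genes with an entry, Gjb2, Gjb6, Gjc3, Gjd2 and Panx1, and 7.81% of 32851 mouse promoter windows hold it on either strand. The GC box GGGCGG, bound by Sp factors, occurred at 2 places before Gjb2 and at 1 before Gjd2, and in 35.7% of all windows. No window of the 6 genes held the STAT motif TTCNNNGAA, found in 8.30% of windows. None of these motifs overlapped another. The stretch shown is 50.0% G and C for Gja1 and 69.2% for Gjb2, and the same 250 bases are 74.0% G and C for Gjd2. Gjc1 and Panx2 had no entry.

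Gja1, the main connexin of radial glia and astrocytes, was counted at 140.3 and 135 CPM in the libraries labelled Nestin-Cre and at 172 and 166 CPM in floxed control. Both libraries labelled Nestin-Cre lay below both controls, at 138 ± 3.36 against 169 ± 4.42 CPM. On the log2 scale the change was -0.29 ± 0.03 (adjusted p = 1.3e-09, quasi-likelihood test of edgeR), a ratio of 0.815 with a 95% interval from 0.779 to 0.853. The call held under all 13 alternatives, where the change lay between -0.32 and -0.27. Its locus spans 56377330 to 56402513 of chromosome 10, plus strand (GRCm38), and its exons overlap no other annotated gene. In bulk RNA, fewer cells of a type and less transcript per cell cannot be told apart.

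Markers of the cells that make Gja1 differed as well. Of 11 radial glial markers 5 fell and 2 rose, with a median log2 fold change of -0.06. Their summed level was 8332 and 8315 CPM in the libraries labelled Nestin-Cre, against 9861 and 9773 CPM in floxed control. Vim, the progenitor intermediate filament, had a log2 fold change of -0.31 ± 0.02 (adjusted p = 1.5e-17), whereas the lipid carrier Fabp7 (-0.03 ± 0.02, adjusted p = 0.237) and the phosphatase Ptprz1 (-0.04 ± 0.02, adjusted p = 0.172) did not pass. The 2 radial glial markers that rose, named after their values were seen, were Hes5 (0.89 ± 0.06) and Hes1 (0.15 ± 0.05). Of 11 astrocyte markers 7 fell and 2 rose, with a median of -0.25 and a summed level of 2987 and 2996 CPM in the libraries labelled Nestin-Cre against 3974 and 3984 CPM in floxed control. The astrocyte filament Gfap fell by 1.42, the matrix protein Sparcl1 by 0.44 and the folate enzyme Aldh1l1 by 0.31 on the log2 scale. The 2 astrocyte markers that rose, named after their values were seen, were Fgfr3 (0.59 ± 0.03) and Aldoc (0.12 ± 0.03). None of the 22 markers was at 0 in any library.

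Set against those sums, Gja1 made 16.8 and 16.3 per 1000 radial glial marker counts in the libraries labelled Nestin-Cre and 17.5 and 17.0 in floxed control. Per 1000 astrocyte marker counts it made 47.0 and 45.2 in the libraries labelled Nestin-Cre and 43.4 and 41.7 in floxed control. The higher astrocyte quotient rested on Gfap. Without Gfap in the sum, a choice made after seeing the data, the quotient was 52.7 and 50.7 in the libraries labelled Nestin-Cre, below the 55.3 and 53.5 of floxed control. Fibroblasts and mural cells also use Gja1. Their 12 markers summed to 71.9 and 75.1 CPM in the libraries labelled Nestin-Cre and to 197 and 192 CPM in floxed control, with 9 fallen and 2 risen and a median of -0.92. By mean level over all 4 libraries the fibrillar collagens came first, and Col3a1 fell by 2.88, Col1a1 by 2.04 and Col1a2 by 0.95 on the log2 scale. The 2 that rose, named after their values were seen, were the smooth muscle actin Acta2 (0.57 ± 0.10) and the matrix proteoglycan Ogn (2.07 ± 0.17). The part of these cell types in the Gja1 difference was not tested.

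Gjb2 and Gjb6 were close to the floor. They lie 18600 bases apart on the minus strand of chromosome 14, from 57098600 to 57104702 and from 57123303 to 57133611. Gjb2 had 10 and 2 counts in the libraries labelled Nestin-Cre and 7 and 14 counts in floxed control, and the groups overlapped. Gjb6 had 6 and 4 counts in the libraries labelled Nestin-Cre and 3 and 4 counts in floxed control. Both genes missed the low-count filter and were not tested in the main comparison. With no filter the log2 fold change was -0.79 ± 0.64 for Gjb2 (adjusted p = 0.442) and 0.51 ± 0.68 for Gjb6 (adjusted p = 0.641). For Gjb2 it was -2.25 without replicate 1 of the libraries labelled Nestin-Cre and -0.12 without their replicate 2. A difference in either gene was not detectable at this depth.

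**Figure D1:**
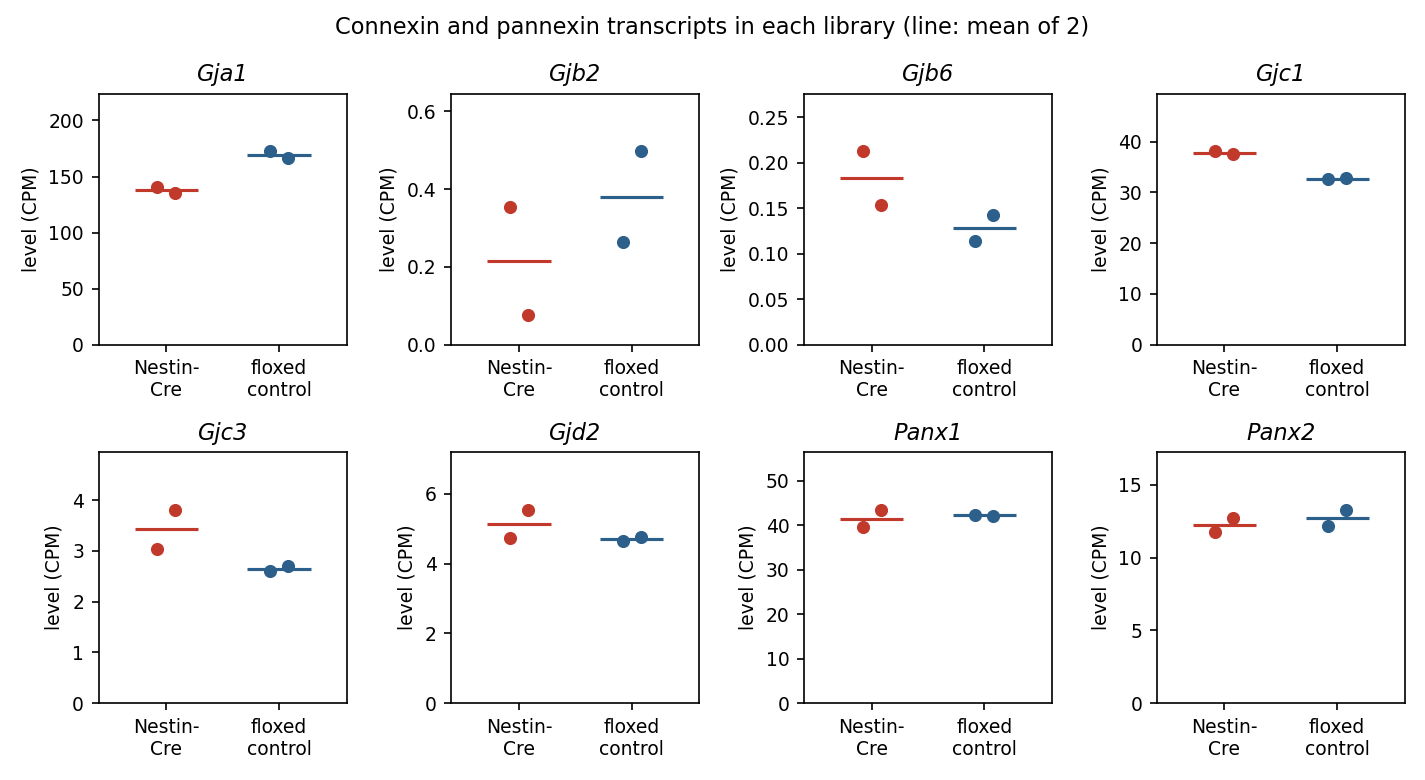
Level of each of the 8 genes (CPM, axes from 0) in the 2 libraries labelled Nestin-Cre (red) and the 2 floxed control libraries (blue), with points for libraries and lines for means. Gja1 lies lower and Gjc1 higher in the libraries labelled Nestin-Cre without overlap, and the points of Gjb2 and Gjb6 stand for 14 counts or fewer.

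Gjc3, the connexin of the oligodendrocyte lineage, was counted at 3.04 and 3.81 CPM in the libraries labelled Nestin-Cre and at 2.61 and 2.70 CPM in floxed control. The groups did not overlap, but the libraries labelled Nestin-Cre lay further apart from each other than the controls did. The log2 fold change of 0.36 ± 0.18 did not pass (adjusted p = 0.131), with a 95% interval for the ratio of 0.993 to 1.66. The change was 0.52 without replicate 1 of the libraries labelled Nestin-Cre and 0.20 without their replicate 2, and passed in neither case. Gjc3 lies on the minus strand of chromosome 5 from 137953461 to 137963098. Of 14 oligodendrocyte lineage markers 8 rose and 1 fell, with a median of 0.35. They summed to 2033 and 2074 CPM in the libraries labelled Nestin-Cre and to 1745 and 1794 CPM in floxed control. Among the most abundant, the lineage factors Olig1 (0.17 ± 0.02) and Sox8 (0.69 ± 0.03) rose and Olig2 (-0.14 ± 0.03) fell. Per 1000 counts of these markers, Gjc3 made 1.5 and 1.84 in the libraries labelled Nestin-Cre and 1.5 in both control libraries.

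Gjc1 rose. This connexin of progenitors, neurons and vascular muscle stood at 38.1 and 37.6 CPM in the libraries labelled Nestin-Cre and at 32.6 and 32.8 CPM in floxed control. The groups did not overlap, and their means were 37.8 ± 0.308 and 32.7 ± 0.139 CPM. On the log2 scale the change was 0.21 ± 0.05 (adjusted p = 0.00195, quasi-likelihood test of edgeR), a ratio of 1.16 with a 95% interval from 1.07 to 1.25. Of 13 alternatives 12 kept the call. With DESeq2 the change was also 0.21 and the adjusted p was 0.0591. The gene occupies the minus strand of chromosome 11 from 102799579 to 102819700, with no overlapping gene in the annotation. Gjc1 made 27.1 and 27.8 counts per 100 counts of Gja1 in the libraries labelled Nestin-Cre, against 18.9 and 19.7 in floxed control, so the pair of connexins changed unequally whatever the scaling.

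Gjd2, the connexin of electrical synapses, was counted at 4.74 and 5.54 CPM in the libraries labelled Nestin-Cre and at 4.66 and 4.76 CPM in floxed control. One library labelled Nestin-Cre lay within the control range and the other above it. The log2 fold change was 0.12 ± 0.14 (adjusted p = 0.555), with a 95% interval for the ratio of 0.891 to 1.33. It was 0.23 without replicate 1 of the libraries labelled Nestin-Cre and 0.0098 without their replicate 2. Gjd2 lies on the minus strand of chromosome 2 from 114009601 to 114013619. It shares 57 exon bases (1.98%) with one record of the noncoding gene A530058N18Rik on the opposite strand and 18 with another. No source used here gives the strand setting of the counting, so reads over those bases cannot be assigned with certainty.

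Neuronal markers were examined beside Gjc1 and Gjd2. Of 12 tested, 7 rose and 2 fell, with a median of 0.11 and a summed level of 2247 and 2227 CPM in the libraries labelled Nestin-Cre against 1979 and 1960 CPM in floxed control. With DESeq2, without a low-count filter, without control replicate 2, or without replicate 1 of the libraries labelled Nestin-Cre, 4 rose. The neuronal tubulin Tubb3 (0.25 ± 0.02) and the microtubule regulator Stmn2 (0.40 ± 0.02) rose, and the migration protein Dcx did not pass (-0.04 ± 0.02, adjusted p = 0.177). The 2 that fell in the main comparison, named after their values were seen, were Gad1 (-0.15 ± 0.04) and Gad2 (-0.38 ± 0.06). Gjd2 made 2.11 and 2.49 per 1000 neuronal marker counts in the libraries labelled Nestin-Cre and 2.35 and 2.43 in floxed control, with overlap. The part of the neuronal share in the Gjc1 difference was not tested.

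Panx1, the widely expressed ATP release channel, was counted at 39.6 and 43.5 CPM in the libraries labelled Nestin-Cre and at 42.4 and 42.1 CPM in floxed control. The control values lay between those of the other group. Its log2 fold change was -0.03 ± 0.05 (adjusted p = 0.751), with a ratio interval from 0.913 to 1.06, and it turned to 0.00080 with upper quartile scaling. Panx2, a pannexin found mainly in neurons, stood at 11.8 and 12.7 CPM in the libraries labelled Nestin-Cre and at 12.2 and 13.3 CPM in floxed control. The groups overlapped, and the change of -0.06 ± 0.09 (adjusted p = 0.652) had a ratio interval from 0.845 to 1.09. Panx1 lies on the minus strand of chromosome 9 from 15002128 to 15045478 and Panx2 on the plus strand of 15 from 89059734 to 89073567. Panx2 made 29.7 and 29.2 counts per 100 counts of Panx1 in the libraries labelled Nestin-Cre and 28.8 and 31.5 in floxed control.

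**Figure D2:**
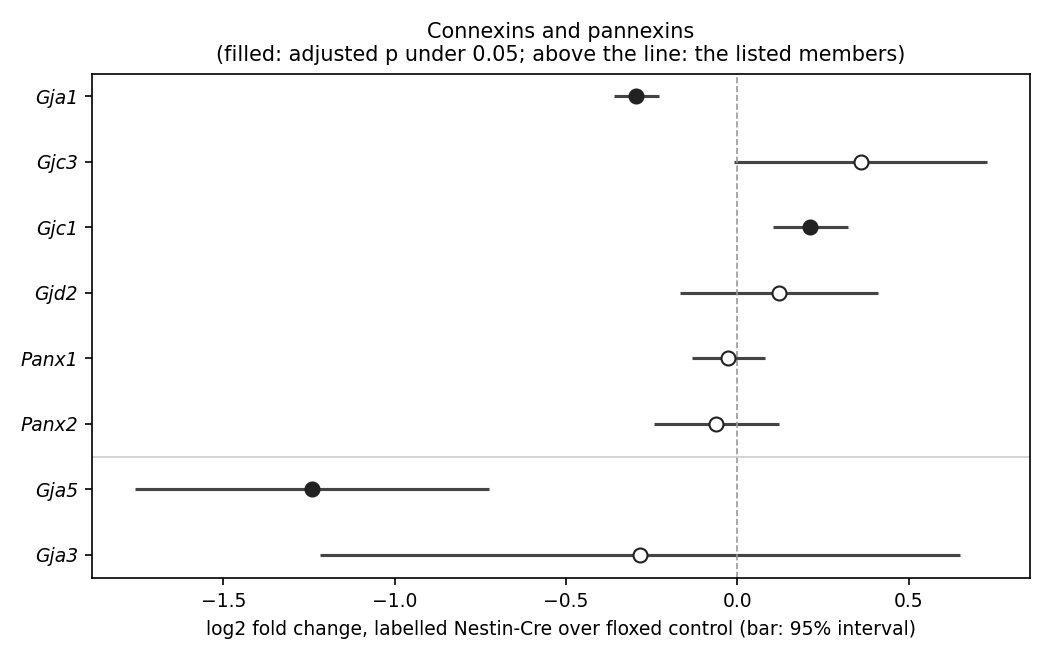
Log2 fold change of the 6 tested genes and of Gja5 and Gja3, labelled Nestin-Cre over floxed control, with its 95% interval (horizontal axis) and genes down the page. Filled points, Gja1 at -0.29, Gjc1 at 0.21 and Gja5 at -1.24, have an adjusted p under 0.05, and the intervals of the other genes include 0.

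Levels of different genes were compared per kilobase of exon, with the union of annotated exons as length. Gja1 led in both groups, at 13.4 ± 0.328 CPM per kilobase in the libraries labelled Nestin-Cre and 16.5 ± 0.431 in floxed control. In the libraries labelled Nestin-Cre, Gjc1 came next (7.56 ± 0.0616), then Panx1 (6.89 ± 0.452), Panx2 (3.40 ± 0.180), Gjd2 (1.79 ± 0.196) and Gjc3 (0.786 ± 0.124). In floxed control, Panx1 (7.01 ± 0.028) preceded Gjc1 (6.53 ± 0.0279), followed by Panx2 (3.54 ± 0.213), Gjd2 (1.63 ± 0.0243) and Gjc3 (0.609 ± 0.0138). Within either group no 2 neighbours among these 6 genes overlapped. Gjb2 and Gjb6 came after several of the other connexins, where the ranges of most neighbours overlapped in the libraries labelled Nestin-Cre.

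The order rests on the length used for some genes. The union of Gja1 exons is 10257 bases but its principal transcript 3182, and for Gjc1 the lengths are 5003 and 2314. Per kilobase of principal transcript, a length chosen after seeing the data, Gja1 stood at 43.3 in the libraries labelled Nestin-Cre and 53.2 in floxed control. On that scale Gjc1 (16.4 in the libraries labelled Nestin-Cre and 14.1 in floxed control) preceded Panx1 (7.25 in the libraries labelled Nestin-Cre and 7.37 in floxed control) in both groups. Of the summed level of 20 connexins per kilobase of exon union, Gja1 made 54.2% and 52.8% in the libraries labelled Nestin-Cre and 61.0% and 59.8% in floxed control. The share of Gjc1 was 30.2% and 30.1% in the libraries labelled Nestin-Cre and 23.6% and 24.2% in floxed control. These shares hold for the union length only and were not computed for the principal transcript. The summed level was 25.2 and 25.0 CPM per kilobase in the libraries labelled Nestin-Cre and 27.5 and 27.1 in floxed control.

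**Figure D3:**
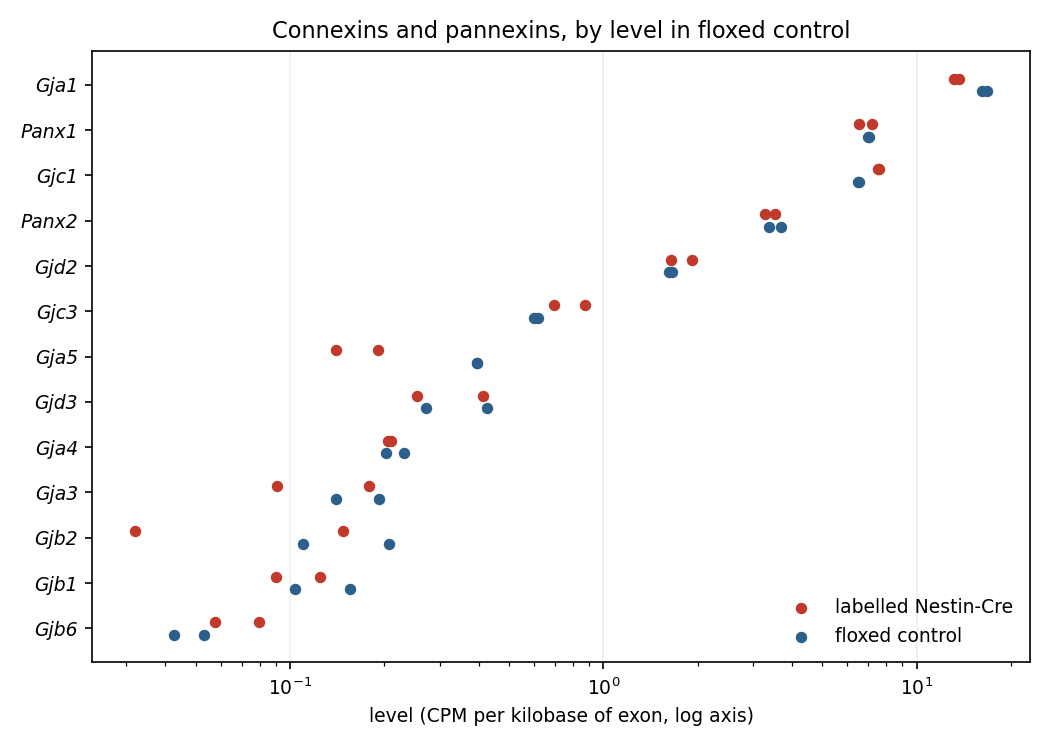
Level of the 8 genes and of Gja3, Gja4, Gja5, Gjb1 and Gjd3 (CPM per kilobase of exon union, log axis), red for libraries labelled Nestin-Cre and blue for floxed control, 1 point per library, genes ordered by floxed control. Gja1 is rightmost at 13.2 to 16.8. The points of the groups separate for Gja1, Gjc1, Gjc3, Gja5 and Gjb6, as for 64.9% of all genes tested. Gjb6 separates on 6 and 4 counts in the libraries labelled Nestin-Cre against 3 and 4 in floxed control.

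Of the other 15 connexin and pannexin genes, 14 had a count in some library and 3 could be tested. Gja5 (connexin 40), made by arterial endothelium, fell. It had 31 and 21 counts in the libraries labelled Nestin-Cre and 60 and 64 counts in floxed control, or 1.10 and 0.808 CPM in the libraries labelled Nestin-Cre against 2.27 CPM in both controls. The log2 fold change was -1.24 ± 0.26 (adjusted p = 0.00017) and lay between -1.49 and -1.05 over 13 alternatives, all of which called it. Gja5 spans 96904693 to 97077416 on the plus strand of chromosome 3. It shares 165 exon bases (2.87%) with Gpr89 on the opposite strand.

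Endothelial markers moved with Gja5 in part. The 7 markers summed to 14.4 and 15.5 CPM in the libraries labelled Nestin-Cre and to 21.7 and 22.4 CPM in floxed control. Of 6 tested, 2 fell and 1 rose. The VEGF receptor Flt1 fell by 1.5 on the log2 scale, the receptor Kdr rose by 0.79 ± 0.18 and the adhesion molecule Pecam1 did not pass (0.09 ± 0.19, adjusted p = 0.757). Flt1 stood at 4.14 and 4.31 CPM in the libraries labelled Nestin-Cre and at 11.3 and 12.6 CPM in floxed control. The lower sum rested mainly on this gene. The part of endothelial cells in the Gja5 difference was not tested.

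The lens connexin gene Gja3 had 15 and 7 counts in the libraries labelled Nestin-Cre and 11 and 16 in floxed control (-0.28 ± 0.46, adjusted p = 0.684). The 11 with 0 to 11 counts per library, among them Gja4, Gja6, Gja10, Gjb1, Gjb5, Gjd3, Gjd4 and Panx3, were not tested. Gje1 had 0 counts in all 4 libraries, which allows up to 0.115 CPM in the shallowest.

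Proteins that anchor, modify or turn over gap junctions were next examined. Of 21 such genes, all tested, 8 fell and 1 rose, beside the 18.1% and 15.1% called in those directions among all genes, and the median log2 fold change was -0.05. Cav1, the caveolar scaffold, stood at 55.1 and 56.4 CPM in the libraries labelled Nestin-Cre and at 73.8 and 69.5 CPM in floxed control (-0.36 ± 0.04, adjusted p = 1.35e-08). N-cadherin (Cdh2), the adhesion molecule of radial glia, stood at 306 and 300.4 CPM in the libraries labelled Nestin-Cre and at 377 and 359 CPM in floxed control (-0.28 ± 0.03, adjusted p = 5.5e-11). The membrane linker ezrin (Ezr) had 143 and 148 CPM in the libraries labelled Nestin-Cre and 177 and 176 CPM in floxed control (-0.28 ± 0.03, adjusted p = 2.5e-09). These genes were named for their small p. The groups did not overlap for any of them, as for 64.9% of all genes tested.

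The scaffold ZO-1 (Tjp1), which binds the tail of connexin 43, fell to 300.0 and 305 CPM in the libraries labelled Nestin-Cre, against 357 and 348 CPM in floxed control (-0.22 ± 0.03, adjusted p = 7.65e-09). With upper quartile scaling 6 of the 21 genes fell and 2 rose, and with DESeq2 6 fell and none rose.

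Genes of extracellular ATP and adenosine signalling, which act on what pannexin and connexin channels release, moved both ways. Of 14 tested, 6 fell and 2 rose, beside the 18.1% and 15.1% called in those directions among all genes, with a median of -0.18. The ectonucleotidase Entpd2, which degrades ATP, was counted at 4.53 and 4.85 CPM in the libraries labelled Nestin-Cre and at 9.54 and 9.79 CPM in floxed control (-1.05 ± 0.12, adjusted p = 4.0e-09). The ATP-gated channel P2rx7 stood at 44.9 and 43.4 CPM in the libraries labelled Nestin-Cre and at 55.5 and 54.9 CPM in floxed control (-0.32 ± 0.05, adjusted p = 6.2e-07). Both were named for their small p and were lower without overlap of the groups, beside 64.9% of all genes tested without overlap.

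The UDP receptor P2ry6, which microglia carry, had 0.990 and 1.27 CPM in the libraries labelled Nestin-Cre and 3.18 and 3.12 CPM in floxed control (-1.48 ± 0.23, adjusted p = 1.5e-06). Microglial markers were scarce, with 9 markers summing to 2.44 and 1.89 CPM in the libraries labelled Nestin-Cre and to 5.07 and 6.14 CPM in floxed control. Of 5 tested, 4 fell, among them the protease Ctss (-1.62 ± 0.35) and the complement genes C1qa (-1.53 ± 0.45) and C1qb (-2.71 ± 0.49). C1qb had 5 and 3 counts in the libraries labelled Nestin-Cre and 21 and 33 in floxed control. A marker could thus enter the test on its control counts alone. With no low-count filter, 4 of 9 markers fell and 1 rose, with a median of -1.50. The marker Aif1, named after its values were seen, went the other way but missed the low-count filter of the main comparison. It had 15 and 8 counts in the libraries labelled Nestin-Cre and 2 and 3 in floxed control. Of the adenosine receptors, Adora2a fell and Adora2b rose, and Adora1, named outside the rule after its values were seen, did not pass (-0.07 ± 0.04, adjusted p = 0.261). Adora2a had 12.8 and 13.7 CPM in the libraries labelled Nestin-Cre and 18.7 and 17.1 CPM in floxed control (-0.43 ± 0.08, adjusted p = 5.4e-05). Adora2b had 2.51 and 2.89 CPM in the libraries labelled Nestin-Cre and 1.25 and 1.17 CPM in floxed control (1.15 ± 0.23, adjusted p = 0.00012). Choroid plexus markers rose in 6 of 8 cases, with a summed level of 1363 and 1378 CPM in the libraries labelled Nestin-Cre against 214 and 222 CPM in floxed control. Of its most abundant markers, the thyroid hormone carrier Ttr (2.81 ± 0.02) and the water channel Aqp1 (1.86 ± 0.10) rose and the transcription factor Otx2 did not pass (0.02 ± 0.07, adjusted p = 0.888). Most of the summed level was Ttr, at 1271 and 1290 CPM in the libraries labelled Nestin-Cre and 178 and 186 CPM in floxed control. The part of microglia and choroid plexus cells in the receptor differences was not tested.

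**Figure D4:**
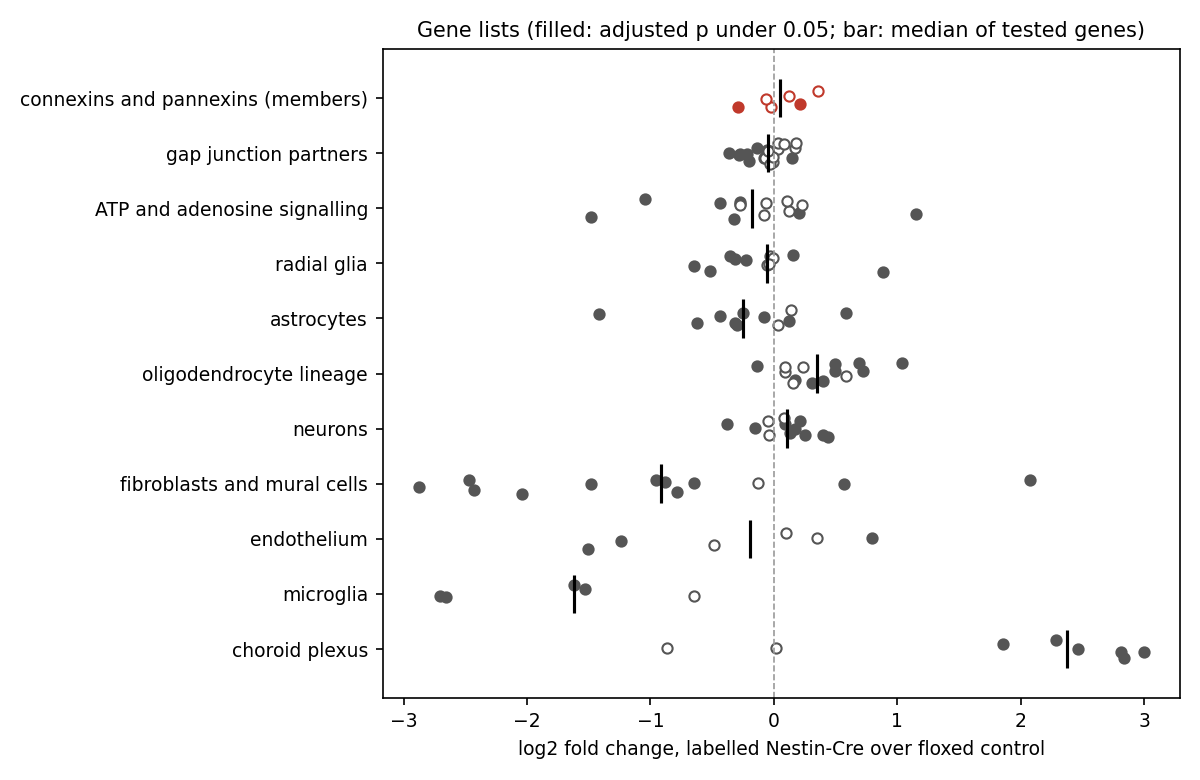
Log2 fold change of each tested gene (labelled Nestin-Cre over floxed control, horizontal axis) in the connexin and pannexin set (red), 2 related gene lists and 8 lists of cell type markers, with the median of each as a bar. Filled points have an adjusted p under 0.05. The medians run from -1.62 for the 5 microglial markers that passed the low-count filter to 2.37 for choroid plexus markers.

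Among 117 tested genes of these lists, those whose pattern over the 4 libraries lay nearest to Gja1 were Cdh2 and P2rx7, at distances of 0.03 and 0.04 (Euclidean, on centred log2 CPM). The growth cone gene Gap43 (0.05) was among the 2 nearest to Gjc1. Gap43 had 308 ± 2.49 CPM in the libraries labelled Nestin-Cre and 265 ± 8.87 CPM in floxed control (0.21 ± 0.03, adjusted p = 4.3e-08). With 4 libraries in 2 groups, these distances rest on few values.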

How the data were processed

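The authors deposited 1 table of raw counts per gene symbol for each of 4 libraries. HISAT2 2.2.1, HTSeq 0.12.4, DESeq2 1.26.0 and the mm10 build are named, per the submitters' processing notes, and the sources used here give no annotation or strand setting. Each table ends in 5 summary lines, which held 25.2% to 26.1% of entries and were left out. Groups and replicate numbers came from the titles.

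The genes, lists and tests were chosen with earlier results of these data known. The test was that of edgeR 4.0.16 (R 4.3.3), with filterByExpr, trimmed mean of M values scaling, a quasi-likelihood F test (legacy turned off) and Benjamini-Hochberg adjustment over 15012 genes at 0.05. SE is the absolute log2 fold change divided by the root of F, and intervals use its degrees of freedom. No permutation test was used, since 2 against 2 libraries allow no exact two-sided p under 0.333. The steps were tested on simulated counts.

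The text names the 8 genes, every other connexin or pannexin with a count, up to 5 tested genes of smallest p in each related list, and up to 3 most abundant tested markers of each cell type. Gje1, without a count, is named beside this rule. Some genes this rule takes are not reported here. Likeness used log2 CPM with a prior count of 2. Positions and lengths came from GENCODE M21 (GRCm38, the assembly of mm10). Alternatives were other scalings and filters, the legacy fit, DESeq2 1.42.0, limma 3.58.1 voom, a replicate block and omission of each library. Floors cover counting error only, and reads carry no molecular identifiers.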

Additional observations from a re-analysis of the deposited data

How the results depend on the processing

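Gja1 was called lower and Gja5 lower under all 13 alternatives, and Gjc3, Gjd2, Panx1 and Panx2 were called under none. Gjc1 missed the threshold with DESeq2, where its log2 fold change was 0.21 (adjusted p = 0.0591, the highest of the alternatives, with 0.00044 the lowest), so that 0 of the 6 genes were then called higher, and 1 lower. The cause was not tested. DESeq2 also called fewer genes in all, 1055 higher and 1642 lower, against 2263 and 2711. Among the lists, risen genes of ATP and adenosine signalling numbered 4 with upper quartile scaling and 1 with DESeq2, against 2, and risen radial glial markers 1 with DESeq2 against 2. The stricter low-count filter left 1 microglial marker to test, which fell, against 4 of 5. Upper quartile scaling turned Panx1 to 0.00080, and it ranged from -0.093 to 0.041 when 1 library was left out, with the positive value without replicate 1 of the libraries labelled Nestin-Cre. Panx2 ranged from -0.12 to 0.0021 when 1 library was left out, with the positive value without control replicate 2.

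With the replicate block the log2 fold changes were -0.30 for Gja1 and 0.21 for Gjc1, and no call among the 6 genes changed. The replicate numbers are not said to mark a shared litter or day. The correlation across genes of the replicate differences of the 2 groups was -0.02, so they were not treated as pairs. Leaving out 1 library leaves a lone sample in its group, which is assumed to vary like the pair, and the low-count filter was applied again to the remaining libraries. Depth limits Gjb2 and Gjb6, and for Gjc3 and Gjd2 the intervals are wide.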
